A study of Mus musculus with 16 samples.

Results

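Senescence and the p53 response were followed in mouse kidney through 10 genes: the cell cycle inhibitors Cdkn1a, Cdkn2a and Cdkn2b, the tumour suppressor gene Trp53 and its inhibitor Mdm2, and the p53 targets Ccng1, Phlda3, Bax, Sesn2 and Trp53inp1. They were taken by gene name from the 2 tables of the series, which list the same 30277 genes, and each name matched 1 row in each table. All 10 are accounted for here. A filter on low levels kept 9 of them in males and 8 in females.

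The p53 protein, made from Trp53, is a transcription factor that is kept scarce in unstressed cells because the ubiquitin ligase Mdm2 marks it for degradation. DNA damage and other stresses stabilise the protein, largely without a change in its mRNA, and p53 then activates genes that arrest the cell cycle, repair damage, curb growth or start cell death, and Mdm2 itself. Senescence is a lasting arrest of the cell cycle held by inhibitors of cyclin-dependent kinases, above all p21 (from Cdkn1a) and p16INK4a (from Cdkn2a). In the kidney p21 is known as a marker of injured tubule cells, and other stress pathways can raise it without p53.

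Polyadenylated RNA came from perfused, flash-frozen kidneys of 129S1/SvlmJ mice congenic for the recessive Klotho (Kl) mutation, aged 44 to 54 days. The 16 libraries fell into 3 male controls (+/Kl), 5 Kl/Kl males, 4 female controls (+/+) and 4 Kl/Kl females. Kl/Kl mice had kidney failure and controls had healthy kidneys, per the labels. Male controls thus carried 1 mutant allele and female controls none. Levels were TPM, read numbers scaled for gene length and library size, given in a separate table for each sex, so sex, table and genotype of the controls cannot be told apart. The length used was the genomic span with introns, so levels are compared here only within a gene. The labels do not say that each library came from a separate mouse, and the p-values therefore reflect only how far these libraries scatter, which may be technical.

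Kl, the mutated gene, was at 4.14 to 15.1 TPM in male controls and at 0.0235 to 0.265 TPM in Kl/Kl males, and at 9.18 to 21.2 against 0.0268 to 0.518 TPM in females. The depth, estimated from the values, ranged from 21.6 to 31.7 M reads. Of 2 libraries that stood apart, female Kl/Kl replicate 3 (54 days old, the oldest) had a summed level of 9 kidney tubule markers of 2.68 TPM, against 310.5 TPM or more in each other library. In it the tubule marker Umod was at 1.68 TPM, and the heart muscle genes Nppa and Myl7 were at 1185 and 453 TPM. The airway genes Scgb1a1 and Scgb3a1 stood there at 362 and 420 TPM, and no other library reached 1 TPM for any of these 4 genes. Its defining kidney markers thus went against its label. Male control replicate 3 had the highest mitochondrial share, 54.3% of its TPM. Each member's log2 difference between genotypes is given with and without the library of its table that stood apart, where the member passed the filter.

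Of the 10 genes, 9 have an entry among the RefSeq promoters of build GRCm38.p6, with 11 start sites in all. The 250 bases before each start were searched on both strands for the p53 decamer, the 10-base consensus unit that p53 binds in pairs. It was found before a start of Cdkn1a, Trp53, Mdm2, Ccng1 and Bax, and 7.126% of all 32851 windows of this length hold one. Among these genes only a window of Cdkn1a held a pair with a spacer of at most 13 bases, which 0.064% of all windows hold. These windows are shown because they belong to the cell cycle inhibitor with the largest difference and to 3 p53 targets; capitals mark the decamer, and the sequences run 5′ to 3′ on the gene's strand. Coordinates are of GRCm38.p6, which is not the build of the tables (mm39), and a match describes letters, not binding.
Cdkn1a, upstream start, chr17:29090729-29090978, plus strand: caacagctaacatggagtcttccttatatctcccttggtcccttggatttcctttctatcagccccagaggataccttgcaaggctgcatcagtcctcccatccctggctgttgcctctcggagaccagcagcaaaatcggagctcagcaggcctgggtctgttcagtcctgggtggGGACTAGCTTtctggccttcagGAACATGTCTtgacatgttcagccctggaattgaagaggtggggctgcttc
Mdm2, chr10:117710759-117711008, minus strand: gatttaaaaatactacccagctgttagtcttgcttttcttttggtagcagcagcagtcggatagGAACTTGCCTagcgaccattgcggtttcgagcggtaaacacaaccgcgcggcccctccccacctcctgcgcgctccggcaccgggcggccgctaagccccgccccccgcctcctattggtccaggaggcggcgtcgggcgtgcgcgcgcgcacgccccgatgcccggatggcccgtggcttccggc
Ccng1, chr11:40755287-40755536, minus strand: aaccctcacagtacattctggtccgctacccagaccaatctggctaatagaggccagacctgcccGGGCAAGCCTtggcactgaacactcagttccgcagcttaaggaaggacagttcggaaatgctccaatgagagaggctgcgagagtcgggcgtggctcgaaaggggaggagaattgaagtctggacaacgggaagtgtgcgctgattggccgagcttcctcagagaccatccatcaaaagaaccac
Bax, chr7:45466899-45467148, minus strand: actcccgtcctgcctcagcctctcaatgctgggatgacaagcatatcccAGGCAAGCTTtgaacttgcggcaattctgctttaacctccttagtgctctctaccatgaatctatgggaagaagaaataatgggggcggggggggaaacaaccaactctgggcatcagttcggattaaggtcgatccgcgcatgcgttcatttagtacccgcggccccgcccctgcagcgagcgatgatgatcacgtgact
The pair before Cdkn1a begins 73 bases before the start, with its next decamer at 51 bases. Only exact matches were searched, so a decamer with any letter off was not marked. This pair need not be the one that p53 binds. The decamers of Mdm2, Ccng1 and Bax begin 186, 185 and 201 bases before their starts, and that of Trp53 begins 75 bases before. The second annotated start of Cdkn1a and the windows of Cdkn2a, Cdkn2b, Phlda3 and Sesn2 hold no match to these letters.

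The comparison of Kl/Kl with control asked whether these genes differed in failing kidneys. Cdkn1a, the gene of p21, showed the largest difference of the members in males and a smaller one in females. Neither passed the threshold of limma, a Benjamini-Hochberg adjusted p under 0.05 over all genes tested. The growth-arrest gene Trp53inp1 and the CDK inhibitor Cdkn2b lay higher in every Kl/Kl male than in every male control, as did 19.1% of all genes tested in males. The log2 differences of Trp53, Mdm2, Ccng1 and Bax in males were -0.01, 0.20, 0.23 and 0.01. With all libraries, limma called 0 of 9 members in males and 0 of 8 in females, where 5.92% of 8439 genes and 0.0349% of 8596 genes were called. At an unadjusted p under 0.05 there were 4 of 9 members in males, where 26.9% of all genes stood, and 1 of 8 in females, where 4.82% stood. Leaving out 1 library turned this round: without male control replicate 3 it was 0 of 9 members in males, where 31.8% of all genes stood. In females 4 of 9 reached it once Kl/Kl replicate 3 was left out, where 18.4% stood. Testing the estimated reads with voom called 0 members in either table, where it called 16.8% of all genes in males and 0% in females. It left 4 male and 1 female member at an unadjusted p under 0.05, where 35.6% and 3.19% of all genes stood. Without the library that stood apart limma also called 0 of 9 members in each table, where 10.5% of all genes were called in males and 0.103% in females.

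In males the median log2 difference of the 9 members was 0.521, on the scale log2(TPM + 1), and that of all 8439 genes was 0.190. In females these medians were 0.172 over 8 members and -0.157 over all 8596 genes. Without male control replicate 3 the male medians were 0.452 over 9 members and 0.01 over all genes. Without Kl/Kl replicate 3 the female medians were 0.183 over 9 members and 0.059 over all genes. With all libraries, scaling by median of ratios moved the medians of all genes to 0.011 and 0.021. Those of the members moved to 0.386 and 0.411. Under that scaling the male calls over all genes went from 316 higher and 184 lower to 455 higher and 698 lower.

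**Figure D1:**
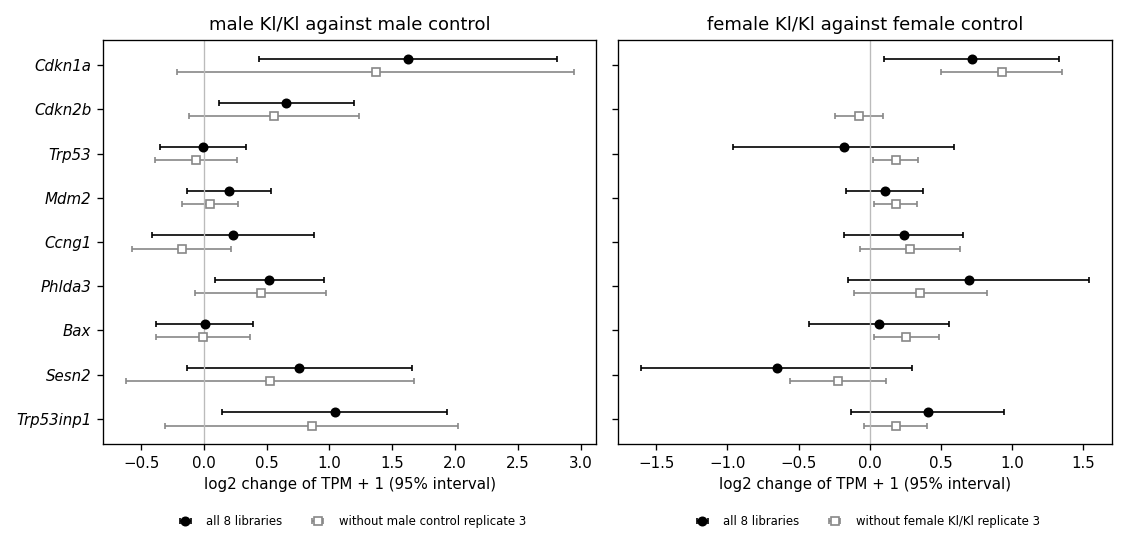
Log2 difference of TPM + 1 between Kl/Kl and control for each member with its 95% interval from limma, males on the left and females on the right. Filled circles use all 8 libraries of a table and open squares leave out the library that stood apart. Cdkn1a lies farthest to the right in both panels, and no member passed the threshold.

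Cdkn1a (ENSMUSG00000023067, chromosome 17, 29309950 to 29319702, plus strand, mm39) encodes p21, the CDK inhibitor that is the best known p53 target. Its level was 1.98, 0.535 and 0.251 TPM in male control replicates 1, 2 and 3. It was 8.10, 3.03, 3.12, 14.3 and 1.21 TPM in Kl/Kl males 1 to 5. Of the Kl/Kl males, 4 stood above every control and replicate 5 lay below control replicate 1, so the groups overlapped. Controls averaged 0.921 ± 0.925 TPM (SD, n = 3) and Kl/Kl libraries 5.95 ± 5.32 TPM (SD, n = 5), a ratio of 6.46. Limma put the log2 difference at 1.63 (SE 0.54, limma adjusted p = 0.0906), and 1.37 without male control replicate 3 (adjusted p = 0.206). Single libraries carried much of both means: the control mean was 0.393 TPM without replicate 1, and the Kl/Kl mean 3.86 TPM without replicate 4. Without Kl/Kl replicate 5, the lowest of its group, the adjusted p of Cdkn1a was 0.0421.

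In females Cdkn1a was at 1.11, 2.06, 0.887 and 0.760 TPM in controls 1 to 4 and at 2.54, 3.54, 1.27 and 3.27 TPM in Kl/Kl replicates 1 to 4. Only replicate 3, the library without tubule markers, overlapped the controls. Controls averaged 1.20 ± 0.590 TPM (SD, n = 4) and Kl/Kl libraries 2.66 ± 1.01 TPM (SD, n = 4). The Kl/Kl mean was 3.12 ± 0.516 TPM (SD, n = 3) without replicate 3. On the log2 scale the difference was 0.72 (SE 0.27, limma adjusted p = 0.745) with all libraries and 0.93 (SE 0.18, adjusted p = 0.0902) without it. The female difference was smaller than the male one by 0.91 on the log2 scale, which limma did not call (adjusted p = 0.542), and by 0.44 without both libraries that stood apart (adjusted p = 0.773). An antisense gene of unknown coding status, 1700023B13Rik, overlaps 10.7% of the span of Cdkn1a and reached at most 0.712 TPM. The use of strand in counting is not given in the sources used here, so their reads cannot be told apart. Same-strand genes overlap Bax (Gm45808, at most 0.0759 TPM) and Sesn2 (Gm12981, at most 0.115 TPM).

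These are whole kidneys, in which fewer cells of a type and less RNA per cell cannot be told apart. The summed level of 7 macrophage markers was 7.29 to 12.9 TPM in male controls and 16.6 to 27.4 TPM in Kl/Kl males, without overlap, and its part in the result was not tested. Limma called 3 of 6 tested markers higher and 0 lower, against 3.74% and 2.18% of all genes, and 2 of 6 higher without male control replicate 3. The defining marker Csf1r went the other way, at 1.91 to 3.18 TPM in controls and 0.879 to 1.87 TPM in Kl/Kl males. Adgre1 stayed at or below 0.0379 TPM in all male libraries. In females the macrophage sum was 11.7 to 19.6 TPM in controls and 14.1 to 43.9 TPM in Kl/Kl libraries, apart from 499 TPM in replicate 3. The sum of 6 lymphocyte markers was 86.8 to 87.5 TPM in male controls and 3.81 to 27.4 TPM in Kl/Kl males, nearly all of it the antibody gene Igkc, and limma called 2 of 2 tested markers lower, against 2.18% of all genes. The T cell marker Cd3e stayed at or below 0.0162 TPM in all male libraries. The kidney tubule sum of Kl/Kl males, 605 to 722 TPM, overlapped the 310.5 to 709 TPM of their controls.

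The sum of 5 adrenal markers was 0.427 to 0.459 TPM in male controls and 0.970 to 71.1 TPM in Kl/Kl males, without overlap. It stood at 10.6 TPM in Kl/Kl replicate 1, which held the highest male Cdkn2b, and at 71.1 TPM in replicate 2, which held the highest male Phlda3, and was at most 1.49 TPM in the other Kl/Kl males. The defining adrenal marker Cyp11b1 was at 1.82 and 9.59 TPM in those libraries and at or below 0.0225 TPM in the other male libraries. The sum of 5 adipocyte markers was 19.0, 11.7 and 13.1 TPM in Kl/Kl replicates 1 to 3, against at most 2.43 TPM in male controls and 0.637 and 1.14 TPM in replicates 4 and 5. Limma called 0 of 4 tested adrenal markers and 0 of 1 adipocyte marker in males, and their part in the results was not tested. Blood markers, 5 in all, summed to 1229.7 TPM in female Kl/Kl replicate 2. Their sum was 406 TPM in female Kl/Kl replicate 3, at most 89.9 TPM in the other females and at most 210 TPM in males. Limma called 0 of 4 tested blood markers in either table. Female Kl/Kl replicate 2 held the highest female Cdkn1a, Trp53 and Mdm2, and the part of blood in these levels was not tested.

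**Figure D2:**
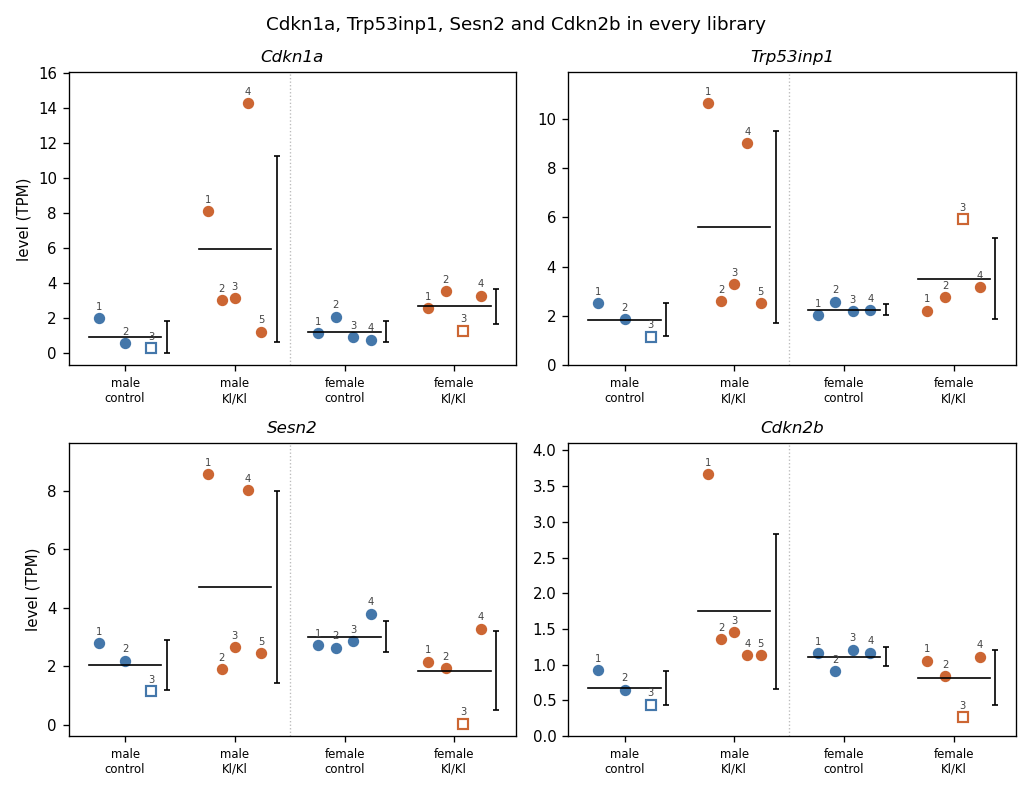
Level in TPM (linear axes) of Cdkn1a, Trp53inp1, Sesn2 and Cdkn2b in every library, by group, with the replicate number beside each point, the mean as a bar and the SD as the error bar; open squares mark the 2 libraries set apart. Replicates 1 and 4 of the Kl/Kl males hold the highest levels of Cdkn1a, Trp53inp1 and Sesn2 of all libraries.

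Cdkn2b (ENSMUSG00000073802, chromosome 4, 89224536 to 89229277, minus strand) encodes p15INK4b, a CDK inhibitor known as a target of TGF-beta rather than of p53. It was at 0.921, 0.649 and 0.441 TPM in male controls and at 3.66, 1.36, 1.45, 1.13 and 1.13 TPM in Kl/Kl males. All 5 Kl/Kl males lay above all 3 controls, as in 19.1% of all genes tested. Kl/Kl replicate 1 stood far above the others. Controls averaged 0.670 ± 0.241 TPM (SD, n = 3) and Kl/Kl libraries 1.75 ± 1.08 TPM (SD, n = 5). The fitted log2 difference was 0.66 (SE 0.24, limma adjusted p = 0.122), and 0.56 without male control replicate 3 (adjusted p = 0.227).

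In females Cdkn2b was at 1.16, 0.909, 1.21 and 1.17 TPM in controls and at 1.06, 0.842, 0.269 and 1.11 TPM in Kl/Kl replicates 1 to 4. The groups overlapped and 3 of 4 Kl/Kl libraries lay inside or just below the control range. With all libraries its mean missed the filter of 1 TPM. Without replicate 3 controls averaged 1.11 ± 0.138 TPM (SD, n = 4) and Kl/Kl females 1.00 ± 0.143 TPM (SD, n = 3), and the log2 difference was -0.08 (limma adjusted p = 0.588). The female difference lay 0.90 log2 units below the male one (SE 0.33, limma adjusted p = 0.542), so the tables could not be shown to differ. Without both libraries that stood apart this gap was -0.63 (adjusted p = 0.282).

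Cdkn2a (ENSMUSG00000044303, chromosome 4, 89192708 to 89212891, minus strand), which lies beside Cdkn2b, encodes p16INK4a and, in another reading frame, p19ARF, a Mdm2 inhibitor. One row of the table holds both products. It was barely detected: 9 of 16 libraries held 0 estimated reads, which allows a level of up to 0.00732 TPM at the shallowest scale (3 reads, counting error only). It had 1 or more reads in 0 of 3 male controls, 3 of 5 Kl/Kl males, 2 of 4 female controls and 2 of 4 Kl/Kl females. The highest, 8 reads, stood in female Kl/Kl replicate 3. A difference between genotypes was not detectable at this depth, and no fold is given.

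Trp53 (ENSMUSG00000059552, chromosome 11, 69471185 to 69482700, plus strand) was at 2.35, 2.55 and 2.04 TPM in male controls and at 2.89, 2.44, 1.90, 1.79 and 2.56 TPM in Kl/Kl males. Controls averaged 2.31 ± 0.255 TPM (SD, n = 3) and Kl/Kl males 2.32 ± 0.460 TPM (SD, n = 5). The log2 difference was -0.01, with a 95% interval of -0.35 to 0.33 (limma adjusted p = 0.984), and without male control replicate 3 it was -0.07 (adjusted p = 0.776). In males the mRNA of p53 thus differed by less than the spread between replicates.

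In females Trp53 was at 2.43, 1.94, 2.01 and 1.92 TPM in controls and at 2.43, 2.57, 0.268 and 2.44 TPM in Kl/Kl replicates 1 to 4. Replicate 3 alone stood far below all other libraries, and its value set the direction of the group. With it the log2 difference was -0.18 (limma adjusted p = 0.785). Without it the Kl/Kl libraries lay just above all controls, at 2.48 ± 0.0773 TPM (SD, n = 3) against 2.07 ± 0.238 TPM (SD, n = 4), and the log2 difference was 0.18 (adjusted p = 0.228).

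Mdm2 (ENSMUSG00000020184, chromosome 10, 117524780 to 117546664, minus strand), both target and inhibitor of p53, was at 2.30, 1.99 and 1.28 TPM in male controls and at 2.03 to 2.56 TPM across Kl/Kl males. The lowest value belonged to male control replicate 3. Limma put the log2 difference at 0.20 (SE 0.15, limma adjusted p = 0.401) with all libraries and 0.05 (adjusted p = 0.758) without that replicate.

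In females Mdm2 was at 2.16, 2.27, 2.11 and 2.07 TPM in controls and at 2.62, 2.84, 1.88 and 2.29 TPM in Kl/Kl replicates 1 to 4. Kl/Kl replicates 1, 2 and 4 lay above every control, by little in replicate 4. On the log2 scale the difference was 0.10 (limma adjusted p = 0.745) with all libraries and 0.18 (SE 0.07, adjusted p = 0.206) without replicate 3. Without that library Cdkn1a, Trp53 and Mdm2 were the members whose Kl/Kl females all exceeded the controls, against 12.2% of all genes. With all libraries no tested member did so in females, against 4.79% of all genes.

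**Figure D3:**
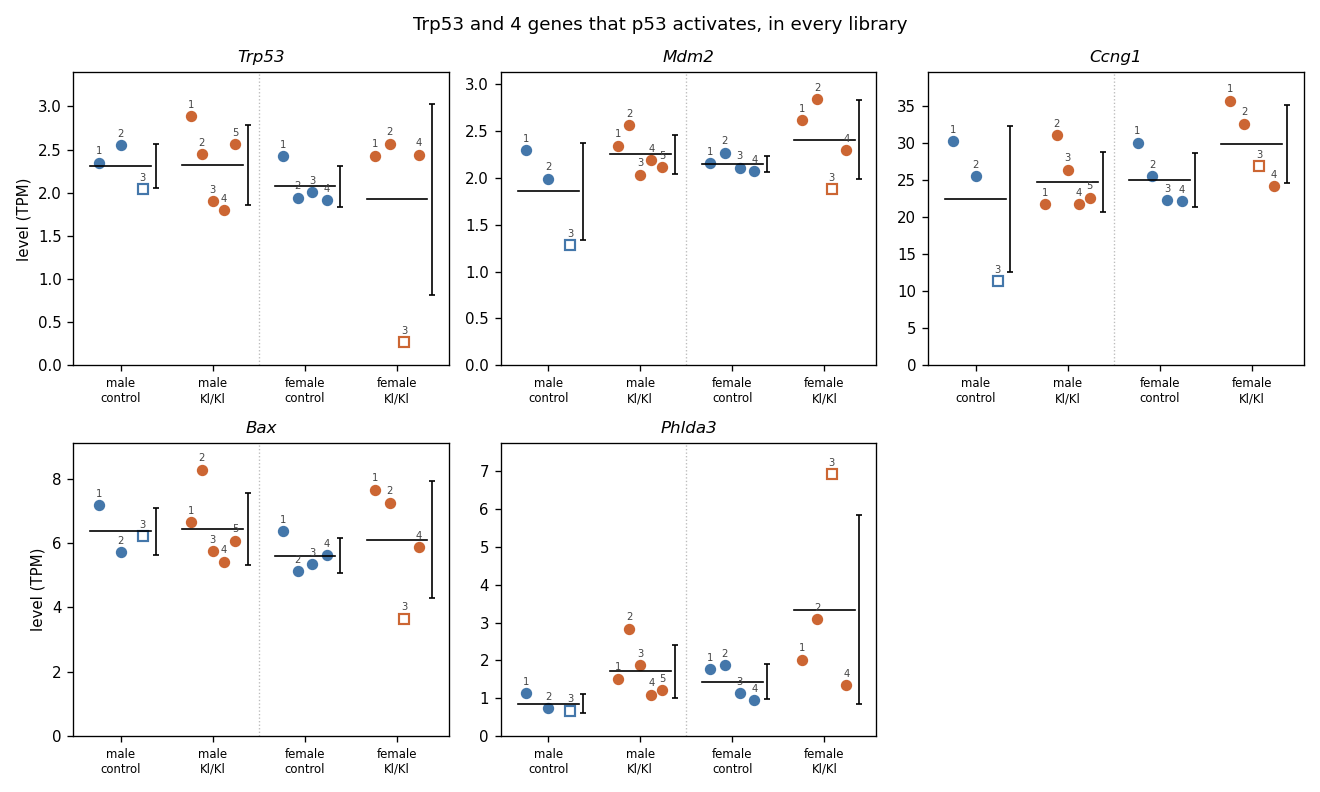
Level in TPM (linear axes) of Trp53, Mdm2, Ccng1, Bax and Phlda3 in every library, by group, with replicate numbers, means as bars and SDs as error bars; open squares are the libraries that stood apart. Apart from those libraries the groups of Trp53, Mdm2, Ccng1 and Bax lie close together, and Phlda3 varies most, up to 6.92 TPM in female Kl/Kl replicate 3.

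Ccng1 (ENSMUSG00000020326, chromosome 11, 40639379 to 40646139, minus strand) encodes cyclin G1, a direct p53 target that acts with a phosphatase on Mdm2. It was at 30.3, 25.6 and 11.4 TPM in male controls and at 21.8, 31.1, 26.5, 21.8 and 22.7 TPM in Kl/Kl males. Only control replicate 3 lay outside the range of the others. Its log2 difference was 0.23 (limma adjusted p = 0.625) with all libraries, -0.18 (adjusted p = 0.50) without that control and -0.02 under median-of-ratios scaling. In females the values were 30.1, 25.6, 22.4 and 22.2 TPM in controls and 35.8, 32.7, 27.0 and 24.2 TPM in Kl/Kl replicates 1 to 4. Kl/Kl replicates 1 and 2 lay above every control and the other two within the control range, and the log2 difference was 0.24 (SE 0.18, limma adjusted p = 0.745), and 0.28 without replicate 3 (adjusted p = 0.355).

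Bax (ENSMUSG00000003873, chromosome 7, 45111121 to 45116323, minus strand), which opens the outer mitochondrial membrane in apoptosis, was at 7.17, 5.72 and 6.20 TPM in male controls and at 5.42 to 8.27 TPM in Kl/Kl males. The groups overlapped almost fully. The fitted log2 difference was 0.01 with a 95% interval of -0.38 to 0.39 (limma adjusted p = 0.986), -0.01 without male control replicate 3 (adjusted p = 0.980) and -0.23 under median-of-ratios scaling. In females Bax was at 5.12 to 6.36 TPM in controls and at 7.65, 7.25, 3.64 and 5.87 TPM in Kl/Kl replicates 1 to 4. Replicate 3 was again the lowest. With it the log2 difference was 0.07 (limma adjusted p = 0.868), and without it 0.26 (SE 0.10, adjusted p = 0.232).

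Phlda3 (ENSMUSG00000041801, chromosome 1, 135693857 to 135696875, plus strand), a p53 target that restrains the kinase Akt, was at 1.14, 0.744 and 0.674 TPM in male controls and at 1.52, 2.84, 1.88, 1.10 and 1.21 TPM in Kl/Kl males. Kl/Kl replicate 4 alone lay below a control. Controls averaged 0.853 ± 0.252 TPM (SD, n = 3) and Kl/Kl libraries 1.71 ± 0.701 TPM (SD, n = 5). The log2 difference was 0.52 (SE 0.20, limma adjusted p = 0.128), and 0.45 without male control replicate 3 (adjusted p = 0.207). Unlike Cdkn1a it was highest in Kl/Kl replicate 2, not in replicates 1 and 4.

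In females Phlda3 was at 1.77, 1.88, 1.14 and 0.943 TPM in controls and at 2.02, 3.08, 6.92 and 1.34 TPM in Kl/Kl replicates 1 to 4. The highest value stood in replicate 3, and the Kl/Kl mean was 3.34 TPM with it and 2.15 TPM without it. The log2 differences were 0.70 (limma adjusted p = 0.745) and 0.36 (adjusted p = 0.376).

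Sesn2 (ENSMUSG00000028893, chromosome 4, 132219343 to 132237813, minus strand) encodes sestrin 2, a stress-induced inhibitor of the growth kinase mTORC1. It was at 2.80, 2.19 and 1.14 TPM in male controls and at 8.58, 1.90, 2.65, 8.03 and 2.45 TPM in Kl/Kl males. Replicates 1 and 4 stood far above the controls, and the other Kl/Kl males lay within the control range. Controls averaged 2.04 ± 0.840 TPM (SD, n = 3) and Kl/Kl libraries 4.72 ± 3.29 TPM (SD, n = 5). The log2 difference was 0.76 (SE 0.41, limma adjusted p = 0.25), and 0.53 without male control replicate 3 (adjusted p = 0.493).

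In females Sesn2 was at 2.73, 2.64, 2.86 and 3.80 TPM in controls and at 2.15, 1.93, 0.0306 and 3.29 TPM in Kl/Kl replicates 1 to 4. Here 3 of 4 Kl/Kl libraries lay below all controls, replicate 3 nearly at 0. The log2 difference was -0.65 (limma adjusted p = 0.745), and -0.22 without replicate 3 (adjusted p = 0.430). The gap between the female and the male difference was -1.41 log2 units (SE 0.64, limma adjusted p = 0.542) and -0.75 without both libraries that stood apart (adjusted p = 0.470).

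Trp53inp1 (ENSMUSG00000028211, chromosome 4, 11156431 to 11174380, plus strand) encodes a stress-induced nuclear protein that assists p53 and takes part in autophagy. It was at 2.53, 1.87 and 1.16 TPM in male controls and at 10.6, 2.60, 3.30, 9.01 and 2.53 TPM in Kl/Kl males. Every Kl/Kl male lay above every control, as in 19.1% of all genes tested, replicate 5 by the smallest margin, and replicates 1 and 4 were again far higher than the rest. Controls averaged 1.85 ± 0.683 TPM (SD, n = 3) and Kl/Kl libraries 5.61 ± 3.89 TPM (SD, n = 5), a ratio of 3.03. Limma put the log2 difference at 1.04 (SE 0.41, limma adjusted p = 0.136), and 0.86 without male control replicate 3 (adjusted p = 0.277). In females it was at 2.04 to 2.58 TPM in controls and at 2.22, 2.76, 5.92 and 3.18 TPM in Kl/Kl replicates 1 to 4. The highest female value again stood in replicate 3. The log2 difference was 0.41 (limma adjusted p = 0.745) with that library and 0.18 (adjusted p = 0.346) without it.

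Kl/Kl males 1 and 4, the libraries with the highest Cdkn1a, Sesn2 and Trp53inp1, also had the lowest mitochondrial shares of the male table, 35.4% and 37.0% of TPM against 40.9% or more in the others. Their endothelial marker sums, 26.8 and 20.6 TPM, were the highest of the male table, where the others had 7.52 to 19.7 TPM. Kl/Kl male 1 and Kl/Kl male 4 were 45 and 44 days old. The part of these differences in the gene levels was not tested.

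Some members varied together over the 14 libraries other than those that stood apart. These are Pearson correlations of log2(TPM + 1) centred within each table; the libraries share the contrast of genotype and the scaling, and the values are a description. Sesn2 and Trp53inp1 correlated at 0.906, Cdkn1a and Trp53inp1 at 0.88, and Cdkn1a and Sesn2 at 0.656. Cdkn2b stood at 0.677 with Trp53inp1, 0.624 with Sesn2 and 0.43 with Cdkn1a, and these fell as low as 0.305, 0.259 and 0.24 when 1 library was left out. Mdm2, Ccng1, Phlda3 and Bax correlated with one another at 0.648 to 0.822, highest for Mdm2 with Bax. Between these groups of genes the values ran from -0.631 for Ccng1 with Sesn2 to 0.479 for Cdkn1a with Mdm2, which is above the 0.43 of Cdkn1a with Cdkn2b, so the groups were not cleanly apart. Trp53 correlated at 0.602 with Bax and 0.469 with Mdm2. With Cdkn1a it stood at -0.097, which ran from -0.313 to 0.323 when 1 library was left out. Without male Kl/Kl replicate 4 and male control replicate 2 that value was 0.501. Cdkn2a correlated at 0.387 or less with every other member.

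**Figure D4:**
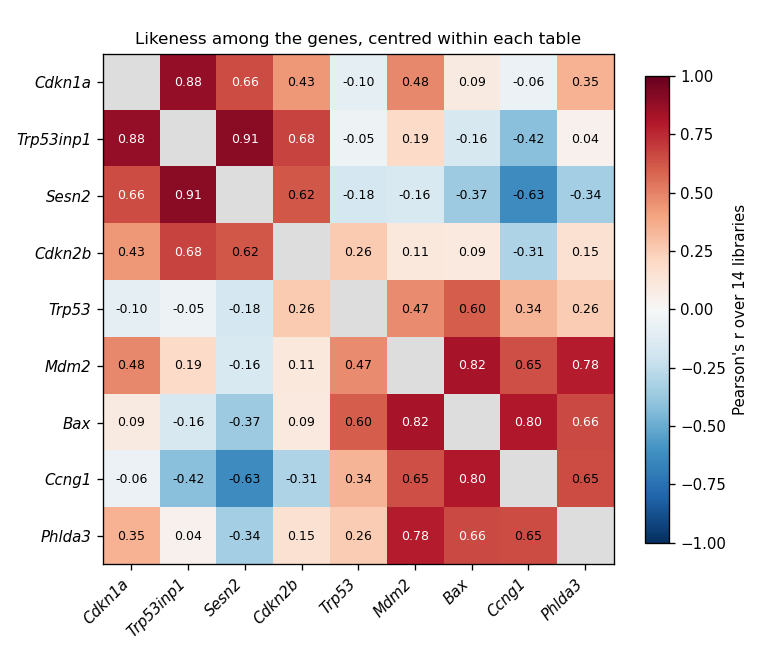
Pearson's r between members over 14 libraries, from log2(TPM + 1) centred within each table, as a colour scale with the value in each cell; Cdkn2a is left out. Cdkn1a, Trp53inp1, Sesn2 and Cdkn2b form a block of positive values, and Mdm2, Ccng1, Phlda3 and Bax another. Cdkn1a stood at 0.43 with Cdkn2b and 0.479 with Mdm2, and at 0.143 and 0.67 by rank. The blocks were thus not cleanly apart.

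Cdkn1a was compared with 6271 other protein-coding genes with a regular symbol whose mean reached 1 TPM in both tables. Those most like it over these 14 libraries were Ddit4 (r = 0.944), Cebpb (0.942), Rpl10 (0.941), Pmm1 (0.935) and Btg2 (0.934). Ddit4 encodes another stress-induced inhibitor of mTORC1, Cebpb a transcription factor of the acute-phase response, Rpl10 a ribosomal protein, Pmm1 a phosphomannomutase and Btg2 an antiproliferative p53 target. Rpl10 has many near-identical pseudogene copies, so its level is uncertain. Trp53inp1 ranked 33, Sesn2 1051 and Mdm2 1833 in likeness, and Cdkn2a and Cdkn2b missed the level needed to be ranked. Without male Kl/Kl replicate 4 and male control replicate 2, which lay farthest from the median of Cdkn1a, these 5 values were 0.847 to 0.943. Over all 16 libraries Ddit4 stood at 0.842 and ranked 44, Rpl10 at 0.743 and ranked 251, and Pmm1 ranked 1.

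Ddit4 was at 25.8, 12.1 and 19.9 TPM in male controls and at 91.2, 23.0, 20.7, 116 and 11.2 TPM in Kl/Kl males. As with Cdkn1a, replicates 1 and 4 stood far above all others and replicate 5 was low. Btg2 was at 5.75, 4.68 and 2.25 TPM in male controls and at 14.0, 8.22, 6.87, 17.1 and 6.31 TPM in Kl/Kl males. All Kl/Kl males exceeded all controls in Btg2, as in 19.1% of all genes tested, with a log2 difference of 1.11 (limma adjusted p = 0.0740).

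**Figure D5:**
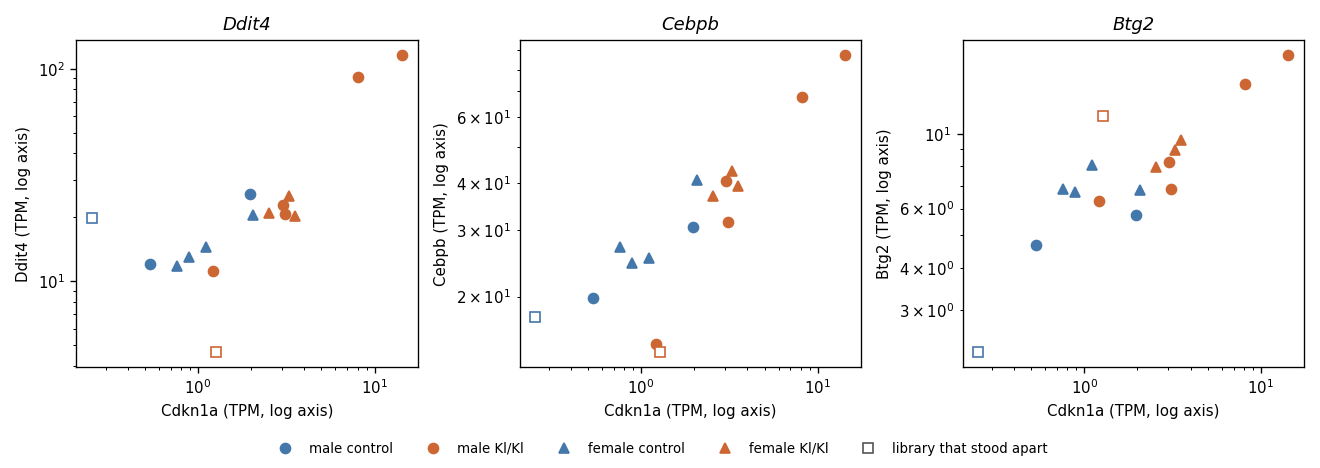
Levels of Ddit4, Cebpb and Btg2 against Cdkn1a in TPM on log axes, 1 point per library, circles for males and triangles for females, with open squares for the 2 libraries set apart. Replicates 1 and 4 of the Kl/Kl males lie at the upper right of each panel.

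The other genes of the pathway were read from lists of p53 regulators, further targets, senescence genes and partners. Limma called 0 of 4 tested p53 regulators (15 listed), 0 of 14 further p53 targets (28 listed), 0 of 6 CDK inhibitors and senescence-state genes (11 listed) and 0 of 3 proliferation genes (15 listed) in either table. It called 0 of 6 Bax partners (8 listed) in either table, and 0 of 5 senescence-associated secreted genes in males and 0 of 8 in females (17 listed). At an unadjusted p under 0.05 these lists held, in that order, 1, 3, 4, 1, 1 and 1 genes in males, where 26.9% of all genes stood, and 0, 1, 0, 0, 0 and 1 in females, where 4.82% stood. Without male control replicate 3 the male counts were 0, 2, 2, 1, 1 and 1, where 31.8% of all genes stood. Without female Kl/Kl replicate 3 the female counts were 0, 7, 3, 2, 1 and 0, where 18.4% stood. Both of these fits tested 4 proliferation genes, and the female one tested 6 secreted genes. Limma called 0 genes of these lists in either case. The 7 were of 14 further p53 targets, whose median log2 difference was then 0.178, against 0.059 over all genes. The voom fit called 0, 2, 2, 0, 1 and 1 in males, all higher, where it called 11.2% of all genes higher, and 0 in females.

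Among p53 regulators, the ubiquitin ligase gene Rchy1 was at 1.61 ± 0.332 TPM (SD, n = 3) in male controls and 2.33 ± 0.359 TPM (SD, n = 5) in Kl/Kl males, and the acetyltransferase gene Ep300 at 1.33 and 1.81 TPM. Among further targets, Dcxr, a carbonyl reductase gene of the proximal tubule, was at 88.2 and 113 TPM and the ribosomal-like gene Rps27l at 16.6 and 16.3 TPM. The CDK inhibitor genes Cdkn1b (p27) and Cdkn1c (p57) were at 12.6 ± 3.06 and 11.7 ± 0.489 TPM in male controls (SD, n = 3) and at 20.7 ± 5.78 and 17.1 ± 3.84 TPM in Kl/Kl males (SD, n = 5). Neither passed the threshold, with limma adjusted p of 0.118 and 0.169. In females without replicate 3 they were at 18.2 and 18.7 TPM in Kl/Kl against 15.8 and 17.1 TPM in controls.

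Of secreted genes, the growth factor binding genes Igfbp5 and Igfbp3 were at 31.1 and 20.3 TPM in male controls and at 34.3 and 27.3 TPM in Kl/Kl males. Of proliferation genes, the replication clamp gene Pcna was at 5.32 and 8.27 TPM (limma adjusted p = 0.118) and the cyclin gene Ccnd1 at 28.8 and 37.2 TPM. The survival gene Mcl1, which restrains Bax, was at 30.2 ± 11.7 TPM (SD, n = 3) in male controls and 59.6 ± 15.1 TPM (SD, n = 5) in Kl/Kl males, with a log2 difference of 1.00 (limma adjusted p = 0.0679). Its relative Bcl2l1 was at 2.32 and 3.20 TPM.

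Of the gene lists other than cell type markers, the tubular injury list alone held called genes. In males 3 of 5 tested genes (10 listed) rose and 0 fell, against 3.74% and 2.18% of all genes. They were Spp1 (osteopontin), Lcn2 (the injury marker NGAL) and Krt18 (a keratin of stressed tubule cells), with log2 changes of 1.92, 1.84 and 1.19 (limma adjusted p = 0.00171, 0.00191 and 0.0249). Krt18 lost its call without any one of male control replicate 2 and Kl/Kl replicates 1, 2 and 4, with adjusted p up to 0.0821, and with no filter on low values (limma adjusted p = 0.0736). In females 0 of 6 were called, where limma called 0.0349% of all genes. Lcn2 was at 0.977 ± 0.751 TPM (SD, n = 4) in female controls and 4.10 ± 1.78 TPM (SD, n = 4) in Kl/Kl females, and at 3.28 TPM without replicate 3. Its female log2 difference was 1.38 (SE 0.31, limma adjusted p = 0.745), and those of Spp1 and Krt18 were 0.70 and 0.01. All Kl/Kl females, at 2.54 TPM or more, exceeded all controls in Lcn2, at most 2.08 TPM, as in 4.79% of all genes.

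The difference between the tables was tested for 9 members in a model of all 4 groups, and limma called 0 of them, against 0.211% of 8535 genes. At an unadjusted p under 0.05 it held Cdkn2b and Sesn2, where 7.73% of all genes stood, and voom called 0 members, where it called 0.0937% of all genes, and left 1 at that level, where 8.89% stood. Without both libraries that stood apart 0 of 9 were called, where 3.89% of all genes were. In that fit 0 of 9 reached an unadjusted p under 0.05, where 20.3% of all genes stood.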

How the data were processed

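TPM values for 30277 genes were deposited by the authors as a male and a female table of 8 libraries each, and 0 further library columns were left unused. Per the submitters' processing notes, build mm39 and Partek were used. Aligner, counting and use of strand: not given in the sources used here. Column totals were 285327 (male) and 265288 (female) TPM, and values were scaled by genomic span (median 9858 bp). Reads were estimated from the spacing of low values, of which 72.957% to 75.1581% per library fell on whole reads within 0.05. Errors are SDs between libraries.

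Levels were analysed as log2(TPM + 1), keeping genes whose mean over the fitted libraries reached 1 TPM, with limma 3.58.1 in R 4.3.3 (lmFit, eBayes with a trend), each table alone, with Benjamini-Hochberg adjustment over all genes tested and a threshold of 0.05. Every log2 difference is on this scale, which understates that of low genes. The method was tested on simulated data that held no library standing apart from its group, and no support is drawn from that test. Tables, promoter searches and plots used Python 3.11.15, NumPy 2.4.6, pandas 2.3.3 and matplotlib 3.10.9. Alternatives were other pseudocounts, filters and scalings, a fit without mitochondrial genes, array weights, a robust fit, voom, a replicate block, age or name prefix as a term, a 4-group model and leaving out each library. The members and lists were chosen with earlier results of these data known. Named were all members, Kl, from each list up to 4 called genes or else the 2 with the highest mean, the 5 genes most like Cdkn1a, and the 2 highest markers of a type that set a library apart. The markers Umod, Csf1r, Adgre1, Cd3e and Igkc, and the values of Btg2 within its list, were named after their values were seen.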

Additional observations from a re-analysis of the deposited data

Results flagged for a closer look

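Over the 27 groups of 4 or 5 libraries looked at for a value far from the rest of its group, 3 stood out, and chance alone flags about 1 group in 20. Cdkn2b was at 3.66 TPM in male Kl/Kl replicate 1, where the gap to the next library was 0.873 of the range of the group. Cdkn2b was at 0.909 TPM in female control replicate 2, below the other controls, with a gap of 0.844 of the range. Trp53 was at 0.268 TPM in female Kl/Kl replicate 3, the library without tubule markers, with a gap of 0.94 of the range.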

How the results depend on the processing

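The count of 0 members called in males went to 3 with array weights (Cdkn1a, Cdkn2b and Phlda3, limma adjusted p = 0.0406, 0.0259 and 0.0181; 33.5% of all genes called) and to 1, Cdkn1a, with age as a term (adjusted p = 0.0267; 5.9% called). It was 0 to 1 when 1 library was left out, where 2.2% to 10.5% of all genes were called. The 1 was Cdkn1a without male Kl/Kl replicate 5, where 5.96% of all genes were called. Array weights called 1 member in females (Cdkn1a, adjusted p = 0.0414; 3.8% called) and 1 in the difference between tables (Cdkn2b, adjusted p = 0.0351; 12.1% called), where the weights had not converged. With the replicate number as a block, limma called 1 member in males, Cdkn1a (log2 1.58, adjusted p = 0.00705), against 2.69% of all genes. Kl/Kl males 4 and 5 have no same-numbered control, so that male comparison rests on replicates 1 to 3 alone. The block fit called 0 members in females, where it called 0% of all genes, and 0 in the difference, where it called 0.105%. The deviations of same-numbered libraries from their group means correlated at -0.131, 0.041 and -0.177 in males. In females the values were 0.063, -0.08, -0.116 and 0.29. These few values cannot decide whether the numbers pair the libraries, and the labels do not say. The likeness of Ddit4 to Cdkn1a was 0.842 over all 16 libraries.

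Directions turned only where the difference was near 0 or rested on 1 library. In males Trp53 stood at 0.003 with age, 0.003 with the name prefix and 0.036 with the block, and at -0.066 to 0.054 with 1 library left out. Bax in males stood at 0 with the name prefix, -0.226 with median-of-ratios scaling, -0.117 with voom and -0.13 without mitochondrial genes, and at -0.077 to 0.083 with 1 library left out. Ccng1 in males stood at -0.039 with array weights, -0.016 with median-of-ratios scaling and -0.177 to 0.491 with 1 library left out. In females Trp53 stood at 0.209 with array weights and -0.316 to 0.182 with 1 library left out, and Bax at -0.041 to 0.258. For the difference between tables, array weights gave Mdm2 0.09, Phlda3 -0.228 and Trp53 0.286, median-of-ratios scaling gave Mdm2 0.272 and Trp53 0.08, voom gave Mdm2 0.158, and the block gave Bax -0.024, Ccng1 -0.08 and Phlda3 -0.021. Without both libraries that stood apart it was 0.135 for Mdm2, -0.096 for Phlda3, 0.247 for Trp53, 0.46 for Ccng1 and 0.266 for Bax. With 1 library left out it was -0.047 to 0.253 for Bax, -0.251 to 0.417 for Ccng1, -0.208 to 0.057 for Mdm2, -0.165 to 0.42 for Phlda3 and -0.311 to 0.187 for Trp53. The cause of these changes was not tested. Cdkn1a, Cdkn2b, Mdm2, Phlda3, Sesn2 and Trp53inp1 kept their direction in males under every alternative run. Mdm2 stood there at 0.036 with median-of-ratios scaling. Among females Cdkn1a, Mdm2, Ccng1, Phlda3, Sesn2 and Trp53inp1 kept theirs. Depth limits Cdkn2a, with at most 8 estimated reads.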
